A study of Mus musculus with 12 samples.

Results

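Of 34 genes of glycolysis and of the response to low oxygen that were listed for this work, 32 were measured among the 19938 genes of the array data. They comprise genes of oxygen sensing, the glucose transporter and glycolytic enzymes, enzymes that handle pyruvate and lactate, and targets of the hypoxia-inducible factors (HIF). Gpi1 and Eno1 were not analysed here, because no probe set was listed for them. Where a gene had several probe sets, as 6 did, its brightest was taken. Every value is a log2 signal of a probe set, on which a difference of 1 is a doubling, and levels of different genes are not compared.

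The cells were peritoneal macrophages that thioglycollate had drawn into the peritoneum of C57BL/6 mice. The donors went on chow or a high-fat diet at 6 weeks of age and stayed on it for 12 weeks. In culture the macrophages were given red blood cells (RBC) of chow-fed mice, RBC of high-fat-fed mice, or none, which made 6 groups of 2 arrays, and all groups share the strain and the elicitation. The labels number the arrays of a group as animals but do not say whether animals were pooled, so the p-values measure only the spread between these arrays. Below, macrophages and RBC are called chow or high-fat after their donors' diet.

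HIF is a transcription factor of an oxygen-labile alpha subunit and a stable partner. Prolyl hydroxylases of the Egln family mark the alpha subunit for breakdown when oxygen is present, and in low oxygen it persists and binds short DNA elements near genes for glucose uptake, glycolysis, vessel growth and mitophagy. In macrophages the same factor is also turned on by inflammatory signals, and glycolysis fuels their activated state. Several targets, Egln3 among them, encode proteins that restrain the pathway.

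The labelled cell type was checked with 12 macrophage markers, whose log2 summed signal lay between 13.8 and 14.1 on all 12 arrays. Single markers varied to different extents: Cd68 ranged from 12.09 to 12.21 and Lyz2 from 12.27 to 12.45, but Adgre1 from 8.92 to 10.21, Cd14 from 8.35 to 10.73 and Fcgr1 from 6.40 to 8.69. Without detection calls, whether a marker such as Cd163, at 3.31 to 3.71, was above background is unknown. The mean log2 signal of the 12 was 9.25 and 9.26 in unexposed chow macrophages and 8.70 and 8.75 in unexposed high-fat ones. Blood-cell transcripts differed between the groups. The log2 of the summed signal of 15 neutrophil markers was 10.7 to 11.1 on the 4 arrays without RBC and 11.5 to 12.3 on the 8 with RBC. Averaged over both macrophage diets, 7 of the 15 were called higher and 1 lower with RBC, against 5.23% and 2.2% of all genes. The summed signal of 7 platelet markers was 11.1 on both arrays of chow macrophages without RBC and 11.1 to 11.5 on their exposed arrays. In high-fat macrophages it was 9.96 and 9.97 without RBC and 10.5 to 11.0 with RBC. In the same average 4 of the 7 markers were called higher with RBC, against 5.23% of all genes. The summed signal of 10 erythroid markers was 7.81 to 7.93 without and 7.90 to 8.64 with RBC. Averaged over both macrophage diets, 2 of the 10 were called higher, against 5.23% of all genes. Those 10 leave out the globin genes, whose probe sets carry several symbols. The probe sets shared by Hba-a1 and Hba-a2 read 5.21 to 5.81 without RBC and 11.06 to 12.33 with RBC. Those shared by the Hbb genes read 4.17 to 4.66 without and 11.23 to 12.51 with RBC. The summed signal of 12 fibroblast and mesothelial markers was 9.79 and 9.78 in chow macrophages without RBC and 10.2 to 10.3 with RBC. There 3 of the 12 were called higher with either RBC, against 6.23% of all genes with chow and 5.41% with high-fat RBC. In high-fat macrophages it was 10.1 on both arrays without RBC and 10.01 to 10.11 with RBC. With chow and high-fat RBC 0 of the 12 were called by limma there, against 0.647% and 0.752% of all genes. The part of all these markers in the results that follow, those on Epas1 and Pdk1 included, was not tested, and in such bulk samples fewer cells of a type and less RNA per cell cannot be told apart.

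A gene was called in a comparison where its limma p, adjusted for all genes by Benjamini-Hochberg, was below 0.05. Of the 32 genes, 12 were called in at least 1 of 12 comparisons and 20 in none, against 20.4% of all genes called in at least 1. The 12 were Egln3, Hif1a, Epas1, Pfkp, Pdk1, Slc16a3, Bnip3, Vegfa, Adm, Ankrd37, Ndrg1 and Mxi1. The map of differences shows that they lay mostly among regulators and targets of HIF. The columns for chow macrophages carried most of the calls made with RBC, as they did over all genes. With chow and high-fat RBC, 9.18% and 8.34% of all genes were called in chow macrophages, against 0.647% and 0.752% in high-fat ones.

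**Figure D1:**
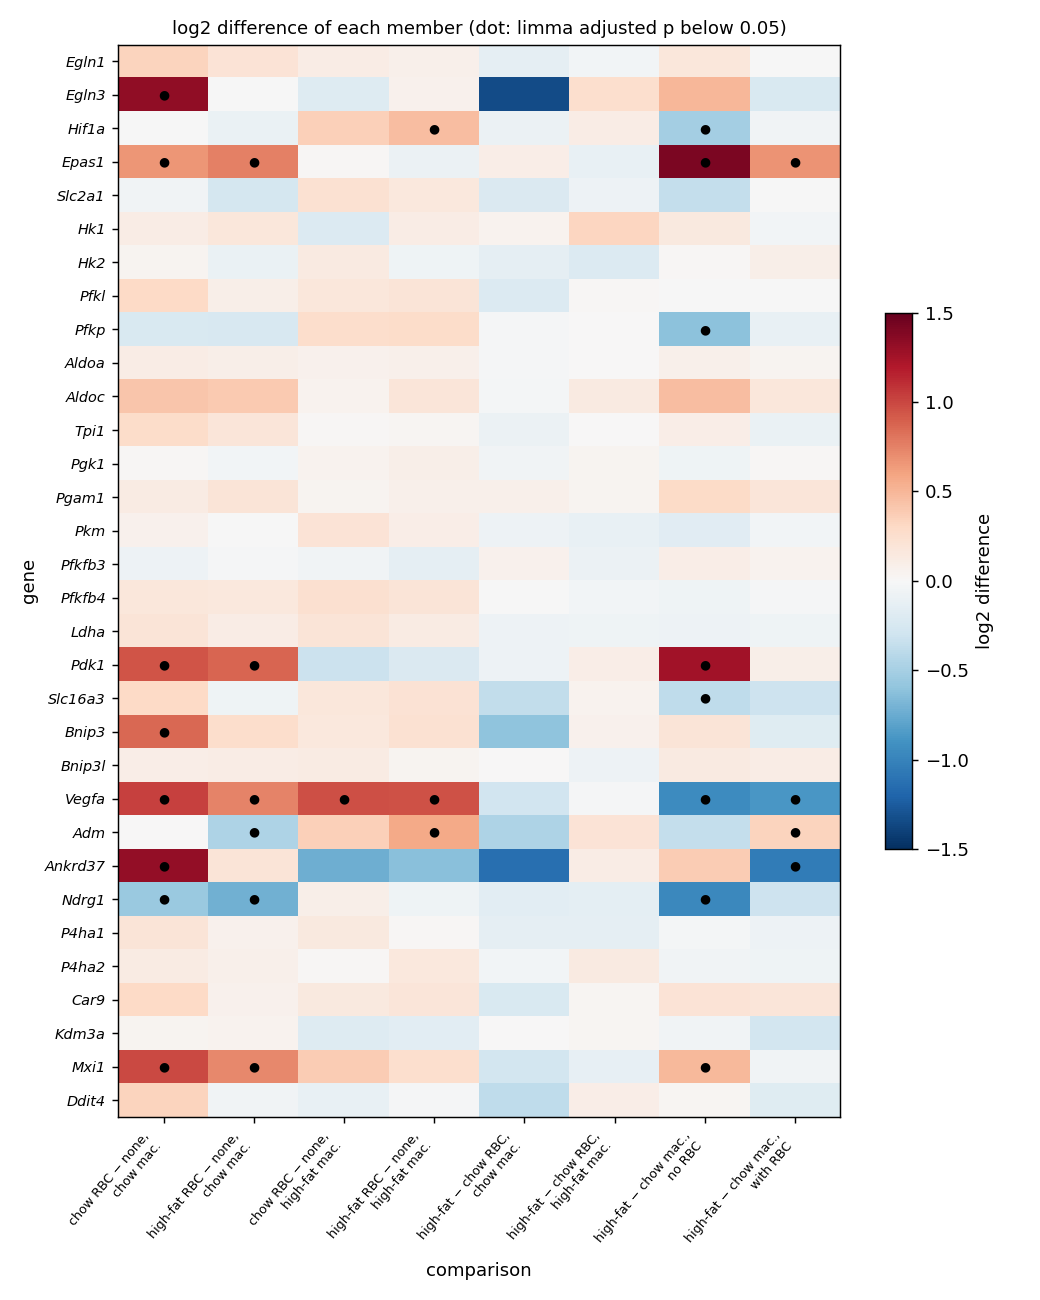
Log2 difference of each of the 32 genes (rows, ordered by role) in 8 comparisons (columns), with red for higher and blue for lower on the first-named side and a dot where the limma adjusted p was below 0.05. Epas1, Vegfa, Ankrd37, Egln3, Pdk1, Mxi1 and Ndrg1 carry the deepest colours, and the rows of the glycolytic enzymes from Slc2a1 to Pkm are pale except for Pfkp and Aldoc.

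Of the oxygen sensors, Egln3, a prolyl hydroxylase that is itself a HIF target, was high in a single group. Its log2 signal was 4.94 and 4.86 on the arrays of chow macrophages without RBC, 6.61 and 5.84 with chow RBC, and 5.11 and 4.67 with high-fat RBC. In high-fat macrophages it was 5.47 and 5.32 without RBC, 5.08 and 5.33 with chow RBC, and 5.51 and 5.40 with high-fat RBC. Both arrays of chow macrophages given chow RBC stood above the other 10 arrays, the first by far the most. Egln3 rose 2.51-fold with chow RBC in chow macrophages, a log2 difference of 1.33 ± 0.20 (SE; adjusted p = 8.2e-04). With chow RBC in high-fat macrophages the difference was -0.20 and was not called.

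The hydroxylase Egln1 had the same highest array with a smaller range. It measured 7.29 and 7.14 in chow macrophages without RBC, 7.71 and 7.40 with chow RBC and 7.45 and 7.39 with high-fat RBC, and its 6 high-fat macrophage arrays lay between 7.32 and 7.55. It was called in no comparison.

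The genes of both HIF alpha subunits differed with the macrophages' diet in opposite directions without RBC. With RBC, Hif1a differed between diets by -0.05 and was not called. Hif1a measured 8.35 and 8.36 in chow macrophages without RBC, 8.41 and 8.29 with chow RBC and 8.32 and 8.20 with high-fat RBC. The high-fat macrophage arrays gave 7.77 and 7.91 without RBC, 8.17 and 8.21 with chow RBC, and 8.32 and 8.29 with high-fat RBC. Only the arrays of high-fat macrophages without RBC stood below 8. Hif1a rose by 0.46 ± 0.10 with high-fat RBC in high-fat macrophages (adjusted p = 0.047), a call that was kept in 1 of the 12 fits with an array left out, that without the second unexposed high-fat macrophage array.

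Epas1, which encodes the second HIF alpha subunit, was lower in chow than in high-fat macrophages, and lowest in unexposed chow macrophages. It measured 8.23 and 8.17 there, 8.86 on both arrays with chow RBC, and 8.98 and 8.93 with high-fat RBC. Among high-fat macrophages the signal was 9.47 and 9.76 without RBC, 9.57 and 9.70 with chow RBC, and 9.52 and 9.53 with high-fat RBC. The 3 levels, unexposed chow, exposed chow and high-fat macrophages of any kind, did not overlap. In chow macrophages Epas1 rose by 0.66 ± 0.11 with chow RBC (adjusted p = 0.0015) and by 0.75 ± 0.11 with high-fat RBC (adjusted p = 5.3e-04), while its differences in high-fat macrophages were 0.02 and -0.09.

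**Figure D2:**
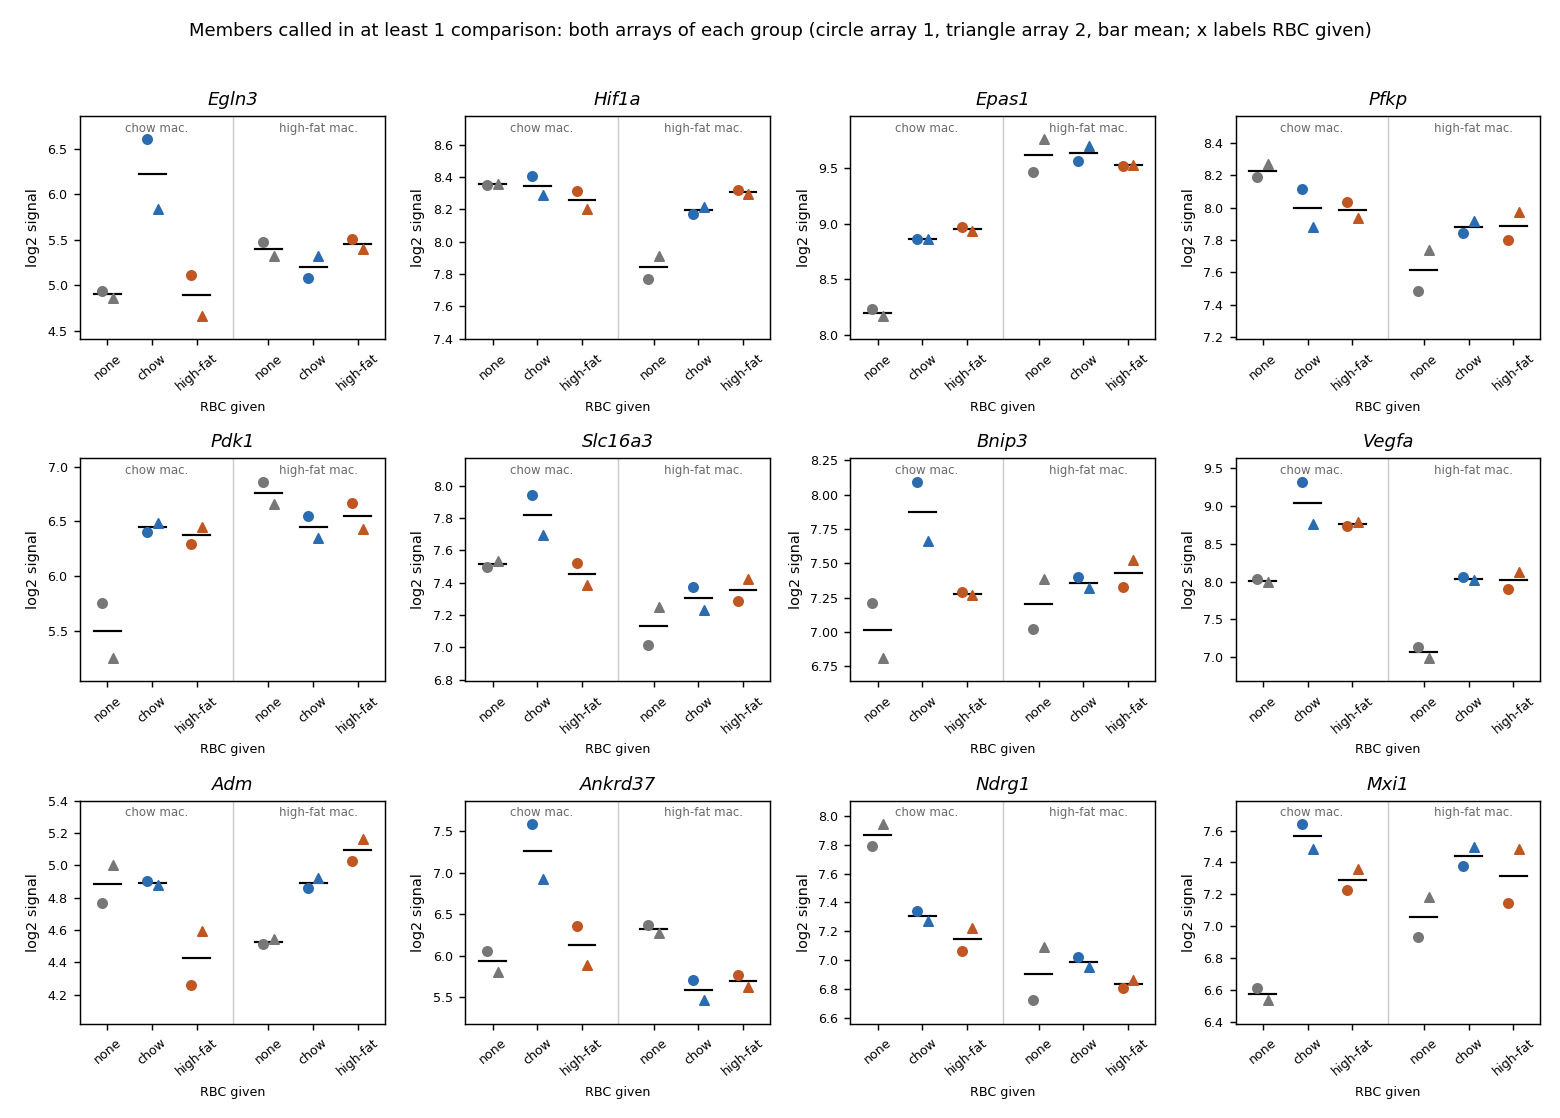
Log2 signal (y) of the 12 called genes on both arrays of each group (circle, array 1; triangle, array 2; bar, group mean), by the RBC given (x) in chow macrophages (left of the line) and high-fat macrophages (right). Egln3, Ankrd37 and Bnip3 are highest in chow macrophages given chow RBC, whose circle lies above the triangle in all 3, whereas Vegfa stands higher with either RBC in both kinds of macrophage.

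Among the targets of HIF, Ankrd37, a small ankyrin repeat protein gene strongly induced by low oxygen, was also highest in chow macrophages given chow RBC. It measured 6.06 and 5.80 without RBC, 7.58 and 6.93 with chow RBC, and 6.36 and 5.89 with high-fat RBC. High-fat macrophages had values of 6.37 and 6.27 without RBC, 5.70 and 5.46 with chow RBC, and 5.77 and 5.62 with high-fat RBC. Its arrays with chow RBC in chow macrophages were above all others, and in high-fat macrophages both unexposed arrays were above the 4 exposed ones. Ankrd37 rose 2.50-fold with chow RBC in chow macrophages (log2 difference 1.32 ± 0.19, adjusted p = 6e-04), and its difference of -0.73 ± 0.19 in high-fat macrophages was not called (adjusted p = 0.15).

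Bnip3, a mitophagy receptor of the outer mitochondrial membrane, measured 7.21 and 6.81 in chow macrophages without RBC, 8.09 and 7.66 with chow RBC and 7.29 and 7.27 with high-fat RBC. Its 6 high-fat macrophage arrays lay between 7.02 and 7.52. The 2 arrays with chow RBC in chow macrophages were again above the rest. Bnip3 rose by 0.87 ± 0.16 there (adjusted p = 0.0042), and the second of its probe sets rose by 0.60 ± 0.12 (adjusted p = 0.0061). With an array left out, the call was lost without the first array of chow macrophages with chow RBC (adjusted p = 0.067) and without the second unexposed chow macrophage array (adjusted p = 0.076). Bnip3l, the gene of the related receptor, stayed between 11.36 and 11.64 on all arrays and was called in no comparison.

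Vegfa, the gene of the main vascular growth factor, was the only gene of the set called with either RBC in both kinds of macrophage. It measured 8.03 and 7.99 in chow macrophages without RBC, 9.32 and 8.76 with chow RBC, and 8.73 and 8.78 with high-fat RBC. In high-fat macrophages it measured 7.14 and 6.99 without RBC, 8.05 and 8.02 with chow RBC, and 7.91 and 8.13 with high-fat RBC. Exposed and unexposed arrays did not overlap within either kind of macrophage, and exposed high-fat macrophages reached the level of unexposed chow macrophages. Vegfa rose by 1.03 ± 0.15 with chow RBC (adjusted p = 5.7e-04) and by 0.74 ± 0.15 with high-fat RBC (adjusted p = 0.0063) in chow macrophages. In high-fat macrophages it rose by 0.97 ± 0.15 (adjusted p = 0.0053) and by 0.95 ± 0.15 (adjusted p = 0.0057), respectively. The test of the difference between these responses, averaged over both RBC, gave 0.08 with a 95% interval of -0.32 to 0.47, so responses that differ by less than that are not told apart.

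The sequences just before the transcription starts of Egln3, Ankrd37 and Bnip3 are shown because these genes were highest in the same group, and that of Vegfa because it was higher in every exposed group. They are the 250 bases before the outermost start in RefSeq on the GRCm38.p6 build, 5′ to 3′ on the strand of the gene, which is the minus strand for all 4. Capitals mark ACGTG and GCGTG on either strand, core letters of the HIF-binding element. ACGTG can overlap its own reverse complement in CACGTG.
Egln3, chr12:54203875-54204124: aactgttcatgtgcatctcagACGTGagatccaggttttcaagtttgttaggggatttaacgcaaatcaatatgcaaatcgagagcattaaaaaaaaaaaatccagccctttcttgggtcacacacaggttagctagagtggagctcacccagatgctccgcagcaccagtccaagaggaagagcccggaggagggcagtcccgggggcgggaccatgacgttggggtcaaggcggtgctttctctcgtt
Ankrd37, chr8:45999851-46000100: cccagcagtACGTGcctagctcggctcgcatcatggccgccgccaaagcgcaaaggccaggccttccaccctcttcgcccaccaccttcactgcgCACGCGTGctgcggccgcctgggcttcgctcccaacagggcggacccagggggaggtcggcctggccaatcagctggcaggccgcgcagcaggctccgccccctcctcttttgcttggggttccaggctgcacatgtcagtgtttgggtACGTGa
Bnip3, chr7:138909507-138909756: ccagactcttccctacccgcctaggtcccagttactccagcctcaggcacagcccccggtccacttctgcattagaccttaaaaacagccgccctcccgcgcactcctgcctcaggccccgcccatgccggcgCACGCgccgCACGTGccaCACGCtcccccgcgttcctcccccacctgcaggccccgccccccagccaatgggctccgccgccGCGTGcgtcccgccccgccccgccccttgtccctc
Vegfa, chr17:46032378-46032627: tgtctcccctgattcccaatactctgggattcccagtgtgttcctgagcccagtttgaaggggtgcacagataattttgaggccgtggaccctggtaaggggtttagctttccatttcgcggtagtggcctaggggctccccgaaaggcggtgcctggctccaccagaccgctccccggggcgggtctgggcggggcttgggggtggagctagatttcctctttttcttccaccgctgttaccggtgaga
Egln3 held 1 ACGTG, Ankrd37 held 2 ACGTG and 2 GCGTG that overlap, and Bnip3 held 2 ACGTG, which are the strands of 1 CACGTG, and 3 GCGTG. The window before Vegfa held neither, and bases outside the windows shown were not searched for these genes. Of the 32 genes, 29 had an entry, and 16 of these held ACGTG, 15 held GCGTG and 23 held either. Among all 32851 promoters of the table, 16.6% held ACGTG, 28.2% held GCGTG and 38.6% held either. These shares count every entry, of which a gene can have several, whereas 1 window was taken for each of the 29. The 29 were also listed as glycolysis genes and HIF targets and are no sample of all promoters. Of the 6 genes with an entry that rose with chow RBC in chow macrophages, 3 held ACGTG and 4 held either, against 13 and 19 of the other 23. These are matches of letters and not measured binding.

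Adm, the gene of the vasodilator peptide adrenomedullin, moved in opposite directions with high-fat RBC. It measured 4.77 and 5.0 in chow macrophages without RBC, 4.90 and 4.88 with chow RBC and 4.26 and 4.59 with high-fat RBC. The high-fat macrophage arrays gave 4.51 and 4.54 without RBC, 4.86 and 4.92 with chow RBC and 5.03 and 5.16 with high-fat RBC. The arrays with high-fat RBC were lower than the unexposed ones in chow macrophages and higher in high-fat macrophages, without overlap in either. Adm fell by 0.46 ± 0.12 in the first (adjusted p = 0.03) and rose by 0.56 ± 0.12 in the second (adjusted p = 0.049). Neither call held with each array left out. The first was lost without the first array of chow macrophages with high-fat RBC (-0.29, adjusted p = 0.28) or the second unexposed chow macrophage array (-0.34, adjusted p = 0.26), and the second was kept in 2 of the 12 fits with an array left out.

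Mxi1, which encodes an antagonist of Myc, rose in chow macrophages with either RBC. It measured 6.61 and 6.53 without RBC, 7.64 and 7.49 with chow RBC, and 7.22 and 7.36 with high-fat RBC. Among high-fat macrophages the signal was 6.93 and 7.18 without RBC, 7.38 and 7.49 with chow RBC, and 7.15 and 7.48 with high-fat RBC. In chow macrophages the exposed arrays were all above the unexposed ones, whereas high-fat RBC left the arrays of high-fat macrophages overlapping. Mxi1 rose by 0.99 ± 0.13 with chow RBC in chow macrophages (adjusted p = 2.2e-04) and by 0.72 ± 0.13 with high-fat RBC (adjusted p = 0.0026).

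Ndrg1, a stress-response gene induced by low oxygen in many cells, was the only gene of the set called lower with both RBC in chow macrophages. It measured 7.79 and 7.95 without RBC, 7.34 and 7.27 with chow RBC, and 7.07 and 7.22 with high-fat RBC, and it lay between 6.72 and 7.09 on the 6 high-fat macrophage arrays. The unexposed chow macrophages stood above every other array. Ndrg1 fell by 0.56 ± 0.12 with chow RBC (adjusted p = 0.0097) and by 0.72 ± 0.12 with high-fat RBC (adjusted p = 0.0018). The call with chow RBC was lost without the second array of that group (adjusted p = 0.068) or without the second unexposed array (adjusted p = 0.11).

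The other 5 hypoxia-inducible genes were called in no comparison. Ddit4, an inhibitor of mTOR signalling, was closest with chow RBC in chow macrophages, where it measured 6.04 and 5.95 against 5.68 and 5.65 without RBC (0.33 ± 0.11, adjusted p = 0.071). The collagen prolyl hydroxylase genes P4ha1 and P4ha2 lay between 6.95 and 7.43 and between 4.69 and 5.22. Car9, a carbonic anhydrase gene used widely as a marker of low oxygen, lay between 4.96 and 5.91, and its arrays differed by up to 0.71 within a group. Kdm3a, a histone demethylase gene, lay between 6.68 and 7.11.

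The glucose transporter and glycolytic enzyme genes were nearly level across RBC exposure. None of the 11 measured was called in any comparison of exposed with unexposed cells in the main fit. In the average of all exposed groups, their differences ran from 0.01 for the hexokinase gene Hk2 to 0.26 for the aldolase gene Aldoc, and all 11 were above 0 for the brightest probe sets, against 44.9% of all genes. The dimmest probe sets of Hk1 and Pkm gave -0.003 and -0.01. With chow RBC in chow macrophages they ran from -0.23 for Pfkp to 0.42 for Aldoc. Aldoc measured 5.97 and 5.57 without RBC and 6.24 and 6.12 with chow RBC, which gave 0.41 ± 0.15 (adjusted p = 0.11).

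The 95% intervals bound the difference of each of these genes on its own. A common shift of the glucose transporter and glycolytic enzyme genes was not tested, and the intervals do not bound one. For the averaged exposure the intervals were -0.15 to 0.18 for the glucose transporter Slc2a1, -0.03 to 0.21 for the aldolase Aldoa, -0.10 to 0.16 for the phosphoglycerate kinase Pgk1 and -0.06 to 0.24 for the pyruvate kinase Pkm. They reached higher for the phosphofructokinase Pfkl, at -0.01 to 0.39, and for Aldoc, at 0.06 to 0.46, an interval above 0 although the adjusted p was 0.11. Slc2a1 measured 9.88 and 9.94 in chow macrophages without RBC, 9.99 and 9.74 with chow RBC, and 9.68 and 9.61 with high-fat RBC, and the first 2 of these groups overlap. Hk1 rests on a doubtful probe set, whose listed transcript also appears on many probe sets of a ribosomal protein gene. Its brightest probe set gave 0.12 and its other probe set -0.13 with chow RBC in chow macrophages, and neither was called. For Pgk1 and for Pgam1 the brightest and next probe sets held identical values, so processed copies of these genes cannot be told from them. Pfkfb3 and Pfkfb4, which set the level of the fructose bisphosphate that activates phosphofructokinase, lay between 7.84 and 8.18 and between 6.32 and 6.67 and were called in no comparison.

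At the branch between lactate and the mitochondrion, Pdk1 was called and Ldha was not. Pdk1 encodes a kinase that inactivates pyruvate dehydrogenase and so keeps pyruvate out of the mitochondrion. It measured 5.75 and 5.25 in chow macrophages without RBC, 6.40 and 6.49 with chow RBC, and 6.29 and 6.45 with high-fat RBC. High-fat macrophages had values of 6.86 and 6.66 without RBC, 6.55 and 6.34 with chow RBC, and 6.67 and 6.43 with high-fat RBC. Unexposed chow macrophages were below all other arrays, and unexposed high-fat macrophages were nearly the highest. Pdk1 rose by 0.94 ± 0.15 with chow RBC (adjusted p = 0.0013) and by 0.87 ± 0.15 with high-fat RBC (adjusted p = 0.0023) in chow macrophages, and its difference with chow RBC in high-fat macrophages was -0.32 and was not called.

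Ldha, the lactate dehydrogenase subunit gene that HIF induces, measured 10.25 and 10.38 in chow macrophages without RBC and 10.57 and 10.45 with chow RBC. The arrays did not overlap, but the difference of 0.19 ± 0.13 had a 95% interval of -0.08 to 0.46 and was not called (adjusted p = 0.39). Slc16a3 encodes a lactate exporter and measured 7.50 and 7.54 without RBC and 7.94 and 7.69 with chow RBC in chow macrophages. It was called only between diets without RBC, as given below.

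By comparison, with chow RBC in chow macrophages 7 of the 32 genes rose and 1 fell, against 9.18% of all genes called, 6.23% higher and 2.94% lower. The median difference of the 32 was 0.18, against -0.02 over all genes, and 27 of 32 were above 0, against 45.0% of all genes. The genes were chosen with earlier results of these data known. Here and elsewhere, an excess of their counts over the share of all genes is therefore no independent support. With high-fat RBC in chow macrophages 4 rose and 2 fell, against 8.34% of all genes called (5.41% higher, 2.93% lower), with a median of 0.08 against -0.03. The same unexposed arrays serve both comparisons, so their lists of called genes are not independent. In high-fat macrophages 1 gene, Vegfa, rose with chow RBC and 0 fell, against 0.647% of all genes called (0.557% higher, 0.0903% lower). With high-fat RBC 3 rose, Hif1a, Vegfa and Adm, and 0 fell, against 0.752% (0.647% higher, 0.105% lower). Averaged over both macrophage diets and both RBC, 4 rose (Epas1, Bnip3, Vegfa and Mxi1) and 1, Ndrg1, fell, against 7.42% of all genes called (5.23% higher, 2.2% lower).

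The first array of chow macrophages with chow RBC was higher than the second for most of the set. Of the 32 genes 27 were higher on array 1, against 47.3% of all genes, with gaps of 0.77 for Egln3, 0.66 for Ankrd37, 0.56 for Vegfa, 0.49 for Pfkl and 0.43 for Bnip3. The median absolute gap was 0.16 over the 32 genes and 0.12 over all genes. On that array the summed neutrophil and platelet signals were 11.7 and 11.4, against 11.9 and 11.5 on the second array. The widest gaps were those of high-fat macrophages without RBC, with a median absolute gap of 0.21 over the 32 genes and 0.16 over all genes, and there 9 of the 32 were higher on array 1, against 54.4% of all genes. In the other 4 groups 9 to 20 of the 32 were higher on array 1.

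**Figure D3:**
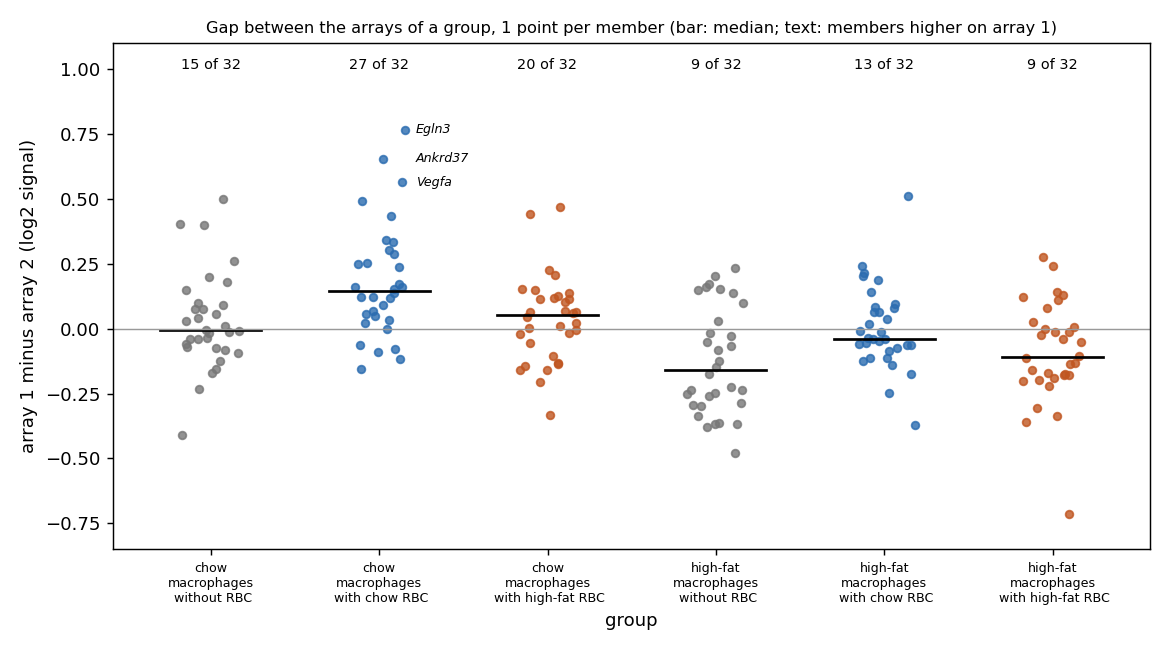
Difference between array 1 and array 2 (y, log2 signal) of each of the 32 genes (points) in each of the 6 groups (x), with the median as a bar and the number of genes higher on array 1 above. Chow macrophages with chow RBC have 27 of 32 genes above 0, with Egln3, Ankrd37 and Vegfa farthest from 0, and high-fat macrophages without RBC have 9 of 32 above 0.

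Leaving out either of these arrays changed the size of the differences more than their direction. Without array 1 the differences with chow RBC in chow macrophages were 0.94 for Egln3 (adjusted p = 0.0086), 1.00 for Ankrd37 (adjusted p = 0.0095) and 0.75 for Vegfa (adjusted p = 0.0056), and all 3 were still called. Without array 2 they were 1.71, 1.65 and 1.31. Each of these fits has a lone array in the group, whose spread is taken to equal that of the other groups.

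In the fit of group means, no difference by the diet of the RBC donors was called for any of the 32 genes. Fits with a block for the animal number called Ankrd37, or Egln3 and Ankrd37, in chow macrophages, as given in the last section. High-fat against chow RBC called 0 of 32 in chow macrophages and 0 of 32 in high-fat macrophages, against 0% and 0.0251% of all genes, and 0 of 32 on average, against 0.01%. At an unadjusted p below 0.05 it gave 7, 1 and 5 of the 32, respectively, and 555, 789 and 629 of all genes. In chow macrophages Egln3 measured 5.11 and 4.67 with high-fat and 6.61 and 5.84 with chow RBC, a difference of -1.34 ± 0.20. Its 95% interval was -1.77 to -0.91 and its p the second smallest of all genes, but the adjusted p was 0.12. Ankrd37 followed with -1.13 ± 0.19 (95% interval -1.54 to -0.72, adjusted p = 0.22) and the fourth smallest p. Bnip3 gave -0.60, with a 95% interval of -0.95 to -0.25. For these 3 genes no array of one group overlapped the other, which 2 arrays per group can give without a difference. The neutrophil signal, 11.7 and 11.9 with chow RBC, was 12.0 and 11.8 with high-fat RBC in these macrophages.

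Among the fits with an array left out, Egln3 passed the threshold only without the second array with chow RBC. In high-fat macrophages Egln3 measured 5.08 and 5.33 with chow RBC and 5.51 and 5.40 with high-fat RBC, the opposite order. The difference between these responses to RBC diet was 1.59 ± 0.28 (95% interval 0.98 to 2.20) and was not called (adjusted p = 0.67), as was no gene of the array, against 0% of all genes, although 6 of the 32 and 718 of all genes had an unadjusted p below 0.05.

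Without RBC, 8 of the 32 genes differed between high-fat and chow macrophages, 3 higher and 5 lower, against 13.9% of all genes called (8.12% higher, 5.82% lower). Epas1 was 2.66-fold higher (1.41 ± 0.11, adjusted p = 5.8e-07), with 9.47 and 9.76 against 8.23 and 8.17. Pdk1 was 2.40-fold higher (1.26 ± 0.15, adjusted p = 4.9e-05) and Mxi1 was higher by 0.49 ± 0.13 (adjusted p = 0.019). Hif1a was lower, at -0.51 ± 0.10 (adjusted p = 0.0024). Vegfa was 1.93-fold lower (-0.95 ± 0.15, adjusted p = 5.3e-04) and Ndrg1 1.95-fold lower (-0.97 ± 0.12, adjusted p = 7.5e-05). The genes of the 2 HIF alpha subunits thus differed in opposite directions between these unexposed cells.

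Pfkp encodes the platelet-type phosphofructokinase. In the main fit it was the only gene called in any comparison among the 11 glucose transporter and glycolytic enzyme genes. It measured 8.19 and 8.27 in chow and 7.49 and 7.74 in high-fat macrophages without RBC (-0.61 ± 0.12, adjusted p = 0.0025). Alternative processing called further genes of the 11 between these unexposed cells. Trended and robust variances also called Slc2a1, Aldoc and Pgam1, the filter on dim genes Aldoc, and quantile normalisation Pgam1. The lactate exporter Slc16a3 measured 7.50 and 7.54 in chow and 7.02 and 7.25 in high-fat macrophages (-0.38 ± 0.12, adjusted p = 0.046), a call kept in 3 of the 12 fits with an array left out. The summed signal of the platelet markers was 11.1 on both chow arrays and 9.96 and 9.97 on the high-fat ones. Of the 7 platelet markers 2 were called lower and 5 were not called, with a median difference of -0.02. Of 12 macrophage markers 6 were called lower and 2 higher, of 15 neutrophil markers 5 were called lower, of 11 B cell markers 6 lower and 1 higher, and of 12 fibroblast and mesothelial markers 3 higher, against the same 8.12% of all genes higher and 5.82% lower. Their part in the results on Pfkp and the others was not tested.

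With RBC, 4 of the 32 genes differed between high-fat and chow macrophages, 2 higher and 2 lower, against 4.85% of all genes called (2.2% higher, 2.65% lower). Epas1 was higher by 0.67 ± 0.08 (adjusted p = 8.1e-05) and Adm by 0.33 ± 0.08 (adjusted p = 0.037), the latter kept in 5 of the 12 fits with an array left out. Ankrd37 was 2.07-fold lower (-1.05 ± 0.14, adjusted p = 2.9e-04) and Vegfa 1.83-fold lower (-0.87 ± 0.10, adjusted p = 1.5e-04). The gene Pdk1, so far apart without RBC, differed by 0.09 with RBC and was not called.

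The response to RBC, averaged over both RBC, differed between the 2 kinds of macrophage for 6 of the 32 genes, 3 in each direction, against 5.67% of all genes called (2.57% higher, 3.1% lower). The response in high-fat macrophages minus that in chow macrophages was -1.44 ± 0.24 for Ankrd37 (adjusted p = 0.0021), -1.17 ± 0.19 for Pdk1 (adjusted p = 0.0017) and -0.74 ± 0.13 for Epas1 (adjusted p = 0.0039). It was 0.69 ± 0.15 for Adm (adjusted p = 0.013), 0.65 ± 0.15 for Ndrg1 (adjusted p = 0.019) and 0.46 ± 0.12 for Hif1a (adjusted p = 0.037). Ankrd37 rose with chow RBC in chow macrophages, whereas its differences of -0.73 with chow and -0.62 with high-fat RBC in high-fat macrophages were not called (adjusted p = 0.15 and 0.27). For Pdk1, Epas1 and Ndrg1, exposed chow macrophages lay nearer than unexposed ones to the level of high-fat macrophages without RBC. The difference for Egln3 was -0.73 ± 0.24 (adjusted p = 0.12) and that for Mxi1 -0.54 ± 0.16 (adjusted p = 0.063), neither called. In the same test 4 of the 12 fibroblast and mesothelial markers were called lower, and 5 of the 12 macrophage markers higher and 1 lower. Of 15 neutrophil markers 4 were called higher and 1 lower, and of 11 B cell markers 3 were called higher. These counts stand against the same 2.57% of all genes higher and 3.1% lower. The part of these markers in the responses was not tested.

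**Figure D4:**
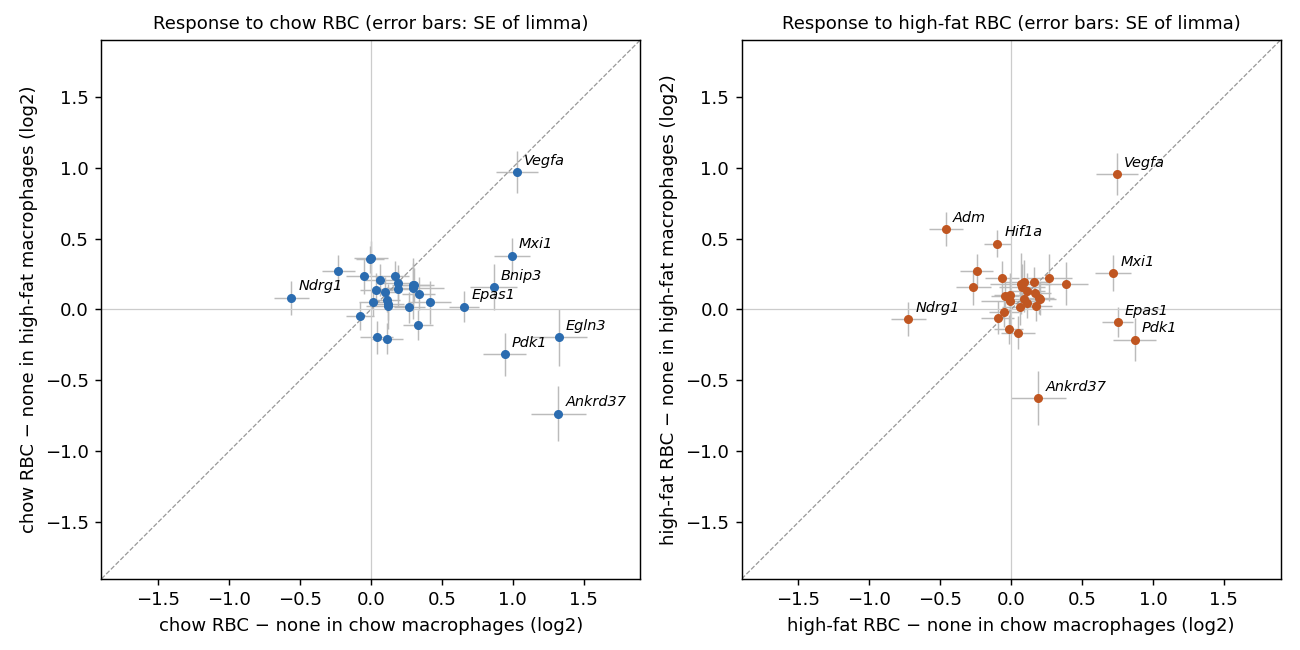
Response of each of the 32 genes to chow RBC (left) and high-fat RBC (right), as the log2 difference from no RBC in chow macrophages (x) and in high-fat macrophages (y), with the limma SE as bars and equal responses on the dashed line. Vegfa lies near the line in both panels, Pdk1 and Epas1 lie far to the right near or below 0 on the y axis, and Egln3 does so only with chow RBC.

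Further genes of the same pathways, from lists of general knowledge, were counted in the same fit. Of 27 other genes of glycolysis and lactate, 6 rose and 1 fell with chow RBC in chow macrophages, against 6.23% and 2.94% of all genes. Pdk2, a sister kinase of Pdk1, rose by 0.89 ± 0.10 (adjusted p = 5.7e-05), and Bpgm, an enzyme abundant in red cells and also on the erythroid list, rose by 1.03 ± 0.14 (adjusted p = 3.1e-04). The glucose transporter gene Slc2a6 fell by 0.96 ± 0.11 (adjusted p = 1.3e-04). With high-fat RBC in chow macrophages 6 again rose and 1 fell, against 5.41% and 2.93%, and Slc2a6 fell by 0.92. In high-fat macrophages 0 were called with chow RBC and 1, Pdk2 at 0.46 ± 0.10, rose with high-fat RBC (adjusted p = 0.048), against 0.647% and 0.752% of all genes called. Without RBC, 10 were higher and 1 lower in high-fat than in chow macrophages, against 8.12% and 5.82%, among them Pdk2 at 0.83, the phosphoglucomutase gene Pgm1 at 0.75 and Slc2a6 at -1.22.

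Of 38 other HIF targets, 7 rose and 1 fell with chow RBC in chow macrophages, against 6.23% and 2.94% of all genes. Plod2, a collagen lysyl hydroxylase gene, rose by 0.92 ± 0.12 (adjusted p = 3.1e-04), Fam162a by 0.77 ± 0.11 (adjusted p = 5.7e-04) and Rragd, a gene of the Rag GTPases of mTOR signalling, by 0.60 ± 0.09 (adjusted p = 0.0011). With high-fat RBC in chow macrophages 5 rose and 1 fell, against 5.41% and 2.93%, and Plod2, Rragd and the glycogen branching enzyme gene Gbe1 gave 0.82, 0.61 and -0.76. In high-fat macrophages Lox, a collagen cross-linking enzyme gene, was the only one called, against 0.647% of all genes with chow and 0.752% with high-fat RBC. It rose by 0.81 ± 0.14 with chow RBC (limma adjusted p = 0.012) and by 0.92 ± 0.14 with high-fat RBC (adjusted p = 0.0042). Without RBC, 6 were higher and 6 lower in high-fat macrophages, against 8.12% and 5.82%, with -1.05 for Gbe1, 0.80 for Rragd and -0.98 for Lox.

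Of 14 regulators and partners of HIF, 1 was called with high-fat RBC in chow macrophages, against 8.34% of all genes. It was Hif3a, which fell by 0.41 ± 0.11 (limma adjusted p = 0.043). With chow RBC in chow macrophages 0 of the 14 were called, against 9.18% of all genes. In high-fat macrophages 0 were called with chow or high-fat RBC, against 0.647% and 0.752%. Of 11 genes of the pentose phosphate pathway, 0 were called in the limma test with RBC, against the same shares of all genes. Without RBC, 2 of the 11 were called higher in high-fat than in chow macrophages, against 8.12% of all genes. The transaldolase gene Taldo1 was higher by 0.43 ± 0.10 (limma adjusted p = 0.008). Prps2, a phosphoribosyl pyrophosphate synthetase gene, was higher by 0.75 ± 0.20 (adjusted p = 0.02).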

How the data were processed

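Per the labels' protocols, RNeasy-purified total RNA went through WTA-Ovation FFPE V2 amplification and Encore biotin labelling onto Affymetrix Mouse Gene ST arrays. The authors deposited 1 log2 signal for each probe set on each array. The method of summarising and normalising them is not given in the sources, and the log2 scale was read from their range. Detection calls and scan dates were not used, which leaves signal over background unknown. Precision is limited by the number of arrays.

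Of 35557 probe sets, 35556 had values, and 21789 carried a single gene symbol in the platform annotation. Probe sets with several symbols (1621) were left out, and 12146 were unlisted. The probe set with the highest mean was kept for each of 19938 genes, with no filter on low values. With limma 3.58.1 (R 4.3.3), lmFit estimated 6 group means from the 12 arrays together and eBayes moderated the variances, with 6 residual and 7.69 prior degrees of freedom. Then 12 contrasts were tested with Benjamini-Hochberg adjustment over all genes. Errors are standard errors of the estimates. The fit was tested on simulated arrays with independent normal noise, where it recovered 99% to 100% of log2 changes of 1. Of changes of 0.5 it recovered 98% for the averaged exposure and 52% to 61% for contrasts of a group with another. For the interaction with exposure it recovered 26%, so a gene not called can still differ by that size. Promoter sequences come from a RefSeq table.

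The members and lists were chosen with earlier results of these data known. All called members were named, with the array values. From each other list up to 3 called genes per comparison were named by smallest p. Genes named beyond this were chosen after their values were seen. Alternatives were quantile normalisation, a filter on dim genes, trended and robust variances, an array left out, replicate blocks and, chosen after seeing the data, the dimmest probe set of a gene.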

Additional observations from a re-analysis of the deposited data

Results flagged for a closer look

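For 6 genes the response to RBC, averaged over both RBC, differed between high-fat and chow macrophages by an interaction test (limma, adjusted p below 0.05). High-fat minus chow, the difference of responses was -1.44 for Ankrd37, -1.17 for Pdk1 and -0.74 for Epas1, and each of these was called in all 12 fits with an array left out. It was 0.69 for Adm, 0.65 for Ndrg1 and 0.46 for Hif1a. The call for Adm was lost without the second unexposed chow macrophage array (adjusted p = 0.10), and that for Hif1a was kept in 2 of 12 such fits. The call for Ndrg1 was lost without the first array of chow macrophages with high-fat RBC (adjusted p = 0.051), without the second unexposed chow macrophage array (adjusted p = 0.12) and without the first unexposed high-fat macrophage array (adjusted p = 0.071).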

How the results depend on the processing

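No called member changed direction under any alternative run. The correlation of deviations of same-numbered arrays was above 0.1 in 2 of 15 pairs of groups (-0.226 to 0.344). Both were within a macrophage diet. They were 0.138 for chow macrophages without RBC and with chow RBC, and 0.344 for high-fat macrophages without RBC and with high-fat RBC. The other pairs of groups within a macrophage diet gave -0.077 to 0.03. With 2 arrays per group, these values cannot decide whether the animal numbers in the labels pair the arrays. With the replicate block, and with the block within macrophage diet, 2 members, Vegfa and Ankrd37, rather than 1 were called for chow RBC in high-fat macrophages. For high-fat against chow RBC in chow macrophages, the replicate block called 1 member, Ankrd37, and the block within macrophage diet 2, Egln3 and Ankrd37, rather than 0. With an array left out, the number of members called was 3 to 8 for the averaged RBC exposure (3 without the second unexposed chow macrophage array, 8 without the second unexposed high-fat macrophage array), 6 to 9 for chow RBC and 4 to 6 for high-fat RBC in chow macrophages, 0 to 1 for chow RBC (0 without its first array) and 0 to 2 for high-fat RBC (0 without its second array) in high-fat macrophages. It was 0 to 1 for high-fat against chow RBC in chow macrophages and for the interaction with RBC diet (1, Egln3, without the second array of chow macrophages with chow RBC), and 0 in all such fits for high-fat against chow RBC on average and in high-fat macrophages. It was 6 to 9 between diets without RBC, 3 to 7 with RBC (7 without either unexposed high-fat macrophage array) and 3 to 7 for the interaction with exposure (3 without the second unexposed chow macrophage array). The averaged call for Bnip3 was lost with its dimmest probe set (0.18, adjusted p = 0.15) and in 8 of 12 fits with an array left out, and that for Ndrg1 without the second unexposed chow macrophage array (adjusted p = 0.12). Vegfa lost its call for high-fat RBC in chow macrophages without the second array of that group (adjusted p = 0.061) or the second unexposed array (adjusted p = 0.059). In high-fat macrophages it lost it without the first array with chow RBC (0.95, adjusted p = 0.069) and without the second with high-fat RBC (0.84, adjusted p = 0.09). Mxi1 lost its call between diets without RBC when either unexposed chow macrophage array or the second high-fat one was left out. Quantile normalisation ended the call for Adm with high-fat RBC in chow macrophages (-0.39, adjusted p = 0.068) and for Hif1a in high-fat macrophages (0.41, adjusted p = 0.051).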
